A study of Mus musculus with 6 samples.

Results

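The proteasome genes described here are the 48 genes, of 30409 in the deposited expression tables, whose symbol is Psma, Psmb, Psmc, Psmd, Psme, Psmf or Psmg followed by a number, with pseudogenes left out. No measured value enters this rule. By role they comprise 7 alpha subunits of the core (Psma1 to Psma7), 7 constitutive beta subunits of the core (Psmb1 to Psmb7), 3 inducible beta subunits of the immunoproteasome (Psmb8, Psmb9 and Psmb10), 6 ATPases of the regulatory cap (Psmc1 to Psmc6), 11 further cap subunits of the Psmd series, 7 assembly factors (Psmg1 to Psmg4, Psmd5, Psmd9 and Psmd10), and 5 activators or inhibitors (Psme1 to Psme4 and Psmf1). Psma8, a testis form of an alpha subunit, and Psmb11, a thymus form of a beta subunit, were kept apart.

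RNA was sequenced from bone marrow cells of C57BL/6 mice, sorted by the phenotype Lineage−Sca1+cKit+CD34−Flk2−, which the labels call LT-HSC for the long-term type of blood stem cell. The RNA libraries, 4 in all, were of Twist1 cKO (conditional knockout) mice 12 days after irradiation, wild-type (WT) mice 12 days after irradiation, Twist1 cKO mice at steady state without treatment, and WT mice at steady state without treatment. Twist1 is a transcription factor of the basic helix-loop-helix family, and the series asked how its loss alters gene expression in these cells in both conditions. The promoter that drives the Cre recombinase, the radiation dose and the number of animals per library are absent from the labels. Levels are FPKM, the reads of a gene scaled to its length and to the depth of the library.

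The proteasome is the protease complex that degrades proteins tagged with ubiquitin in the cytosol and nucleus. Its barrel-shaped core holds rings of alpha and beta subunits, of which Psmb5, Psmb6 and Psmb7 carry the proteolytic sites, and its cap binds ubiquitin chains, unfolds the substrate with a ring of ATPases and feeds it into the core. Interferon-responsive cells and many blood cells replace the proteolytic subunits with Psmb8, Psmb9 and Psmb10, which changes the peptides available for presentation on MHC class I molecules, and haematopoietic stem cells depend on a tightly kept balance of protein synthesis and degradation.

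Each group held 1 library, so no difference below has a replicate check and no test was run. The intervals given are exact 95% intervals and cover counting error only. Reads recovered in genes from the FPKM values numbered 20349810 in the irradiated cKO library, 24743744 in the irradiated WT library, 22127527 in the steady-state cKO library and 25100739 in the steady-state WT library. Twist1 itself had 0, 5, 2 and 6 reads in these libraries in the same order, too few to show a difference. The irradiated libraries differed from their label. The 12 genes of LT-HSC identity and of the sorting gate summed to 276 FPKM in the irradiated cKO library and 116 FPKM in the irradiated WT library. They summed to 771 FPKM in the steady-state cKO library and 855 FPKM in the steady-state WT library. The 12 include Cd34 and Flt3 (Flk2), which the gate selects against, so low values of these genes do not depart from the label. Cd34 had 0.322 and 0.155 FPKM in the irradiated cKO and WT libraries, against 29.2 and 18.4 FPKM at steady state. Flt3 had 1.32 and 0.519 FPKM, against 9.32 and 6.26 FPKM. Most of the irradiated sums was Ly6a (Sca1), and the other 11 genes summed to 20.5 and 26.4 FPKM in the irradiated cKO and WT libraries against 409 and 321 FPKM in the steady-state cKO and WT libraries. None of the 12 was at 0, but Hlf, a transcription factor that marks LT-HSCs, had 0.102 and 0.0608 FPKM in the irradiated cKO and WT libraries against 17.7 and 17.4 FPKM in the steady-state cKO and WT libraries. The 13 erythroid genes summed to 16916 and 13910.3 FPKM in the irradiated cKO and WT libraries against 2714 and 4122 FPKM at steady state (cKO, WT), and none was at 0 in any library. Across the 4 libraries the summed level ranged between 2328 and 4332 FPKM for 14 macrophage and dendritic cell genes, 440.0 and 2707 FPKM for 11 neutrophil genes, 1585 and 5727 FPKM for 10 B and plasma cell genes, 86.9 and 371 FPKM for 10 T and NK cell genes, and 25.6 and 87.9 FPKM for 10 stroma genes. Only Pax5 (B cells) and Cdh5 (endothelium) were at 0, both in the irradiated WT library. Genes at 5 FPKM or more in either library were counted at 1.5-fold, irradiated against steady state. Lower in WT were 10 of 12 macrophage, 7 of 7 neutrophil and 6 of 6 B and plasma cell genes. So were 4 of 4 T and NK cell genes (26.9% of all genes). In Twist1 cKO 8 of 11 macrophage genes were higher (20.8% of all genes). Lower there were 6 of 8 neutrophil, 3 of 6 B and plasma cell and 2 of 5 T and NK cell genes (34.6% of all genes). In these lists 1, 1 and 2 genes were higher. The Y-linked Ddx3y had 0.0164 and 0.0521 FPKM in the irradiated cKO and WT libraries against 12.4 and 10.2 FPKM at steady state (cKO, WT), so sex and irradiation cannot be told apart in these libraries. The part of these cell types in the results below was not tested, and in bulk RNA fewer cells of a type and less RNA per cell cannot be told apart.

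Proteasome transcripts were abundant in all 4 libraries. Together the 48 genes made up 1.65% of all FPKM in the irradiated cKO library and 2.20% in the irradiated WT library, against 1.09% in the steady-state cKO library and 0.964% in the steady-state WT library. Their median level was 135 and 207 FPKM in the irradiated cKO and WT libraries and 80.4 and 92.3 FPKM in the steady-state cKO and WT libraries, and the median percentile of the group among all genes lay between 97.1 and 98.1 in the 4 libraries. At 5 FPKM or more stood 46 of the 48 genes in each library. The exceptions were Psme4, a nuclear activator, with 1.38 FPKM in the irradiated cKO library, 1.84 in the irradiated WT library, 1.48 in the steady-state cKO library and 1.75 in the steady-state WT library, and Psmb11, which had 4 reads (0.0402 FPKM) in the irradiated cKO library and none in the other 3.

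**Figure D1:**
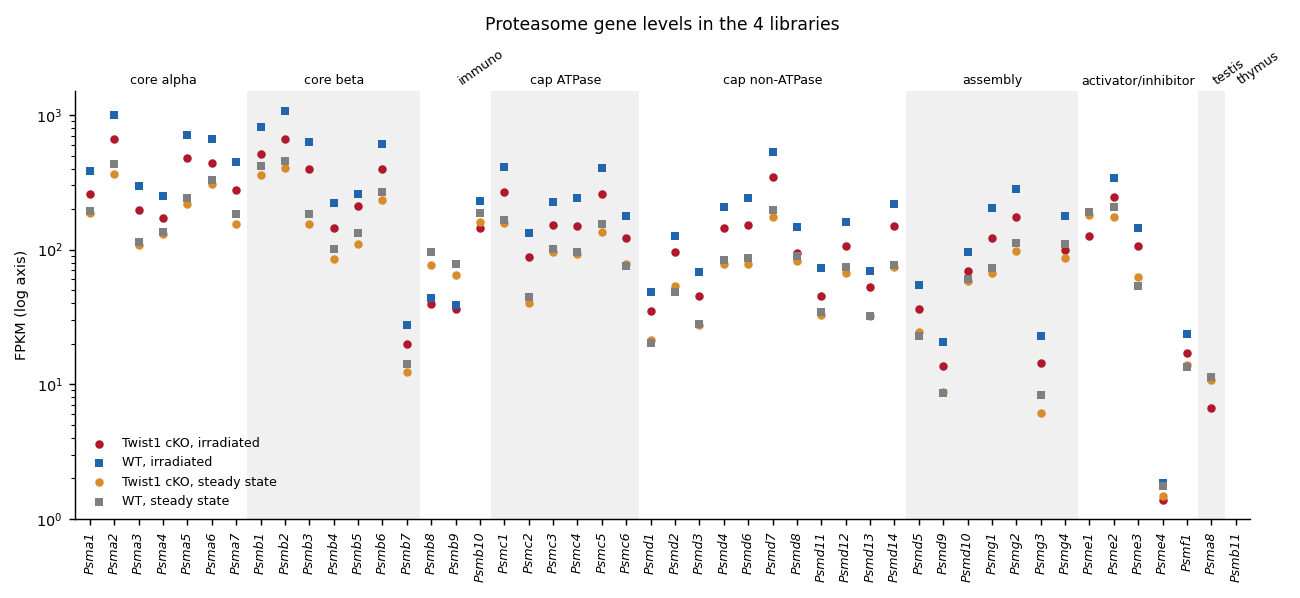
Level of each proteasome gene in FPKM (log axis) in the 4 libraries, ordered by role; each point is 1 library, and Psmb11, at 0.0402 FPKM or 0, lies off the axis. The core and cap genes are highest in the irradiated WT library, and Psmb8 and Psmb9 are lower in both irradiated libraries than in both steady-state libraries.

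The median core subunit stood above the median cap subunit in every library. The 14 constitutive core genes had median levels of 337 FPKM in the irradiated cKO library, 529 in the irradiated WT library, 171 in the steady-state cKO library and 188 in the steady-state WT library. The 17 cap genes had medians of 123, 178, 77.8 and 77.5 FPKM in the same order, so the core median was 2.75, 2.97, 2.19 and 2.43 times the cap median. The highest gene was Psmb2, a structural beta subunit, at 669 FPKM in the irradiated cKO library, 1077 in the irradiated WT library, 402 in the steady-state cKO library and 455 in the steady-state WT library. Psmb7, a proteolytic beta subunit, was the lowest core gene in each library, at 19.9, 27.6, 12.3 and 14.1 FPKM. The gene length implied by the authors' values is 3421 bases for Psmb7 and 1204 for Psmb2, and levels per length depend on that choice. In recovered reads, not divided by length, Psmb7 had 1593, 2093, 1065 and 1254 in the same order. Psmb2 had 18902, 28712, 12211 and 14253 reads. The order of the 31 constitutive core and cap genes by level was nearly the same in every library: Spearman's rho over the 31 genes was between 0.965 and 0.979 for pairs of an irradiated and a steady-state library and 0.994 and 0.996 for the pairs within the irradiated and within the steady-state condition. This is a correlation across genes, which share gene lengths and counting in all libraries.

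Irradiated cells were compared with steady-state cells within each genotype. All 31 constitutive core and cap genes were higher in the irradiated library, in Twist1 cKO and in WT alike, while Psmb8 and Psmb9 of the immunoproteasome were lower in both. Differences are given on the log2(FPKM + 1) scale. Genes were kept where the higher of the compared libraries reached 5 FPKM, which left 46 members. Their median was 0.69 in Twist1 cKO and 1.20 in WT, against −0.20 and 0.21 for all genes kept (7393 and 7418). This puts the members 0.88 and 0.99 above the median gene. Over all genes kept the difference rose with mean level, with Spearman's rho of 0.33 in Twist1 cKO and 0.32 in WT. The members are abundant, and the part of level in their distance from the median gene was not tested. At least 1.5-fold higher after irradiation were 30 of 46 members in Twist1 cKO, where 20.8% of all genes were, and 41 of 46 in WT, where 34.9% were. At least 1.5-fold lower were 3 members in Twist1 cKO (Psmb8, Psmb9 and Psma8; 34.6% of all genes) and 2 in WT (Psmb8 and Psmb9; 26.9% of all genes). With differences taken from the median gene instead of 0, 37 members were at least 1.5-fold higher and 2 lower in Twist1 cKO (28% and 28% of all genes), and 36 were higher and 2 lower in WT (26.7% and 31.7%). At 2-fold, without this centring, the counts were 5 higher members in Twist1 cKO (Psma5, Psmb3, Psmc2, Psmd14 and Psmg3; 10.3% of all genes) and 31 in WT (18.9% of all genes).

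**Figure D2:**
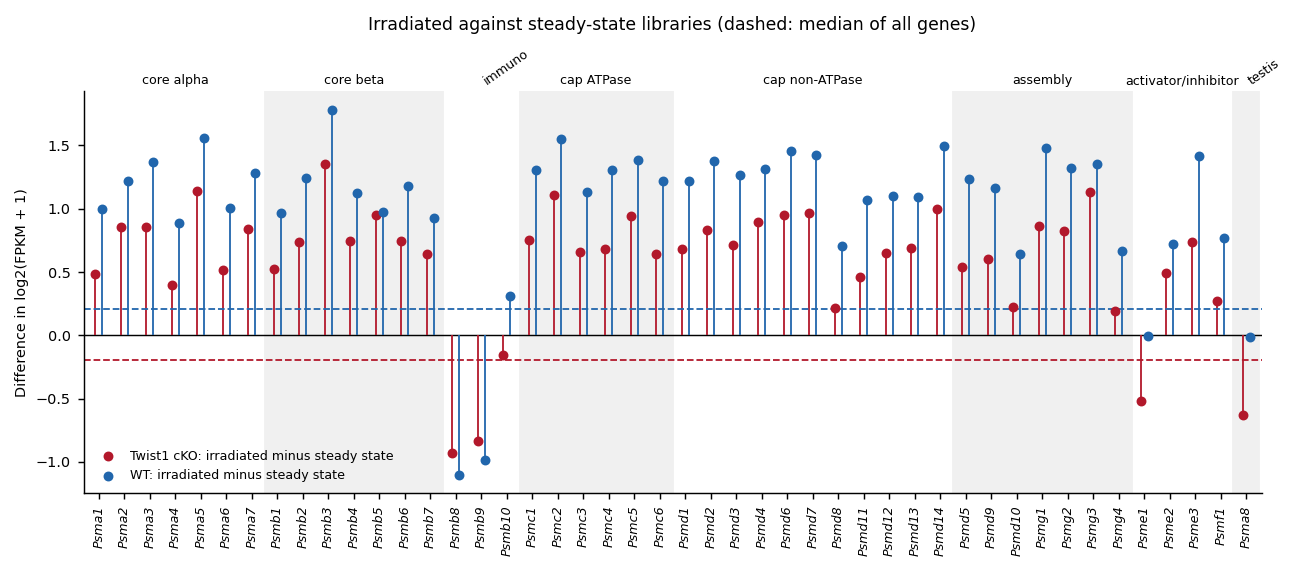
Difference in log2(FPKM + 1), irradiated minus steady state, for the 46 proteasome genes kept (5 FPKM or more in either library), in Twist1 cKO (red, left) and WT (blue, right); dashed lines mark the median of all genes in each comparison, −0.20 in Twist1 cKO and 0.21 in WT. Every core, cap and assembly gene lies above the line of its own comparison, and Psmb8 and Psmb9 lie below it.

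Among the alpha subunits, which form the outer rings and the gate of the core, the median difference was 0.84 in Twist1 cKO and 1.22 in WT. Psma5 had 479 FPKM in the irradiated and 217 in the steady-state cKO library, and 710.4 in the irradiated and 241 in the steady-state WT library. Its ratio was 2.21 (2.14 to 2.27) in Twist1 cKO and 2.95 (2.88 to 3.03) in WT, the highest of the 7 alpha genes in both genotypes. Psma4 was the lowest of them, at 172 FPKM in the irradiated and 130.5 in the steady-state cKO library (difference 0.39), and 252 in the irradiated and 136 in the steady-state WT library (0.89). Both irradiated libraries thus stood above both steady-state libraries for the highest and the lowest alpha gene. No share of all genes is given for such separations, here or below. At least 1.5-fold apart in either direction were 55.4% of all genes kept in Twist1 cKO and 61.8% in WT. The sign was the same in both genotypes for 79.8% of 7039 genes kept.

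Among the 7 constitutive beta subunits the median difference was 0.74 in Twist1 cKO and 1.13 in WT. Psmb3, a structural subunit, had the highest difference of all members in both genotypes: it stood at 397 FPKM in the irradiated and 155 in the steady-state cKO library, a ratio of 2.57 (2.50 to 2.63), and at 634 FPKM in the irradiated and 184 in the steady-state WT library, a ratio of 3.46 (3.38 to 3.53). Its difference lay above those of 93.9% of all genes kept in Twist1 cKO and of 96.9% in WT. Psmb5, which carries the chymotrypsin-like site, had 212 and 109 FPKM in the irradiated and steady-state cKO libraries. It had 260.0 and 132 FPKM in the irradiated and steady-state WT libraries. Its uncentred difference was nearly equal in both genotypes (0.95 in Twist1 cKO and 0.97 in WT). Relative to the median gene it was 1.15 in Twist1 cKO and 0.77 in WT. Psmb6, which carries the caspase-like site, had 395 and 235 FPKM in the irradiated and steady-state cKO libraries (0.75) and 612 and 269 FPKM in the irradiated and steady-state WT libraries (1.18). Psmb7, which carries the trypsin-like site, had 19.9 and 12.3 FPKM in the irradiated and steady-state cKO libraries (0.65) and 27.6 and 14.1 FPKM in the irradiated and steady-state WT libraries (0.92). Each of the 3 proteolytic subunits was thus higher in both irradiated libraries than in both steady-state libraries. Psmb1, a structural subunit, had the smallest difference of the beta genes in Twist1 cKO, 0.53, and Psmb7 in WT.

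The cap genes showed the same direction. The 6 ATPases had medians of 0.72 in Twist1 cKO and 1.31 in WT, with Psmc2 highest in both: it had 88.1 FPKM in the irradiated and 40.3 in the steady-state cKO library, and 133 FPKM in the irradiated and 44.8 in the steady-state WT library. The lowest ATPase was Psmc6 in Twist1 cKO (0.64) and Psmc3 in WT (1.13). The 11 further cap subunits had medians of 0.71 and 1.26. Psmd14, the deubiquitinase of the cap, was the highest of these with 150.4 and 74.7 FPKM in the irradiated and steady-state cKO libraries, a ratio of 2.01 (1.95 to 2.08), and 219.7 and 77.5 FPKM in the irradiated and steady-state WT libraries, a ratio of 2.84 (2.75 to 2.93). Psmd8, a structural subunit, was the lowest with 95.2 and 82.0 FPKM in the irradiated and steady-state cKO libraries (0.21) and 146 and 89.1 FPKM in the irradiated and steady-state WT libraries (0.71). At least 1.5-fold higher were 25 of the 31 core and cap genes in Twist1 cKO (20.8% of all genes) and 31 of 31 in WT (34.9% of all genes). Without the 50 most abundant genes these counts were 16 in Twist1 cKO and 29 in WT, and over the other scalings they were between 25 and 31 in Twist1 cKO and between 30 and 31 in WT. All 31 stayed above 0 under every scaling tried, with medians between 0.59 and 1.34 in Twist1 cKO and between 0.89 and 1.76 in WT.

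Assembly factors, which guide the building of the core and of the base of the cap, had medians of 0.60 in Twist1 cKO and 1.23 in WT, and all 7 were above 0. Psmg1, a chaperone of alpha ring formation, had 122 and 66.9 FPKM in the irradiated and steady-state cKO libraries (0.86) and 204 and 72.8 FPKM in the irradiated and steady-state WT libraries (1.48), the highest assembly gene in WT. Psmg3, a partner chaperone at a low level, had 14.5 and 6.08 FPKM in the irradiated and steady-state cKO libraries (1.13) and 22.8 and 8.33 FPKM in the irradiated and steady-state WT libraries (1.35), and was the highest in Twist1 cKO. The lowest in Twist1 cKO was Psmg4, another chaperone of core assembly, at 99.2 and 86.8 FPKM in the irradiated and steady-state cKO libraries (0.19). The lowest in WT was Psmd10 (gankyrin, a chaperone of the cap base), at 95.4 and 60.6 FPKM in the irradiated and steady-state WT libraries (0.65). Psmd10 is X-linked, and the sex-linked transcripts differed along with irradiation.

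The inducible subunits departed from the rest of the core. Psmb8 (ENSMUSG00000024338; GRCm38 chromosome 17, 34198195 to 34201454), the counterpart of Psmb5, had 39.7 FPKM in the irradiated and 76.7 in the steady-state cKO library, and 43.9 in the irradiated and 95.5 in the steady-state WT library. It was 1.93-fold (1.84 to 2.03) lower after irradiation in Twist1 cKO and 2.17-fold (2.08 to 2.28) lower in WT. Psmb9 (ENSMUSG00000096727; chromosome 17, 34182030 to 34187330), the counterpart of Psmb6, had 36.1 and 65.001 FPKM in the irradiated and steady-state cKO libraries and 38.8 and 78.1 FPKM in the irradiated and steady-state WT libraries, which is 1.80-fold (1.73 to 1.88) and 2.01-fold (1.93 to 2.096) lower. For both genes the irradiated libraries did not overlap the steady-state libraries, again with no share of all genes to set beside it. At least 1.5-fold lower were 34.6% of all genes kept in Twist1 cKO and 26.9% in WT. The genotypes within a condition lay close together. Both stayed lower under every scaling tried, between −1.09 and −0.34 in Twist1 cKO and between −1.45 and −0.56 in WT for Psmb8, and between −0.99 and −0.24 and between −1.33 and −0.45 for Psmb9. With upper-quartile scaling neither was 1.5-fold lower in either genotype, and with scaling by the median of ratios Psmb9 fell just short of that size in Twist1 cKO (−0.58).

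Psmb10 (ENSMUSG00000031897), the counterpart of Psmb7, did not share this pattern. It had 144 FPKM in the irradiated and 160.2 in the steady-state cKO library, and 231 in the irradiated and 186 in the steady-state WT library. Its difference was −0.15 in Twist1 cKO and 0.31 in WT, and both signs turned with the scaling, over −0.30 to 0.45 and −0.03 to 0.86. It lay close to the median gene in both genotypes, with percentiles of 51.7 and 53.9 among the genes kept.

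A ratio of 2 transcripts within a library does not depend on how the library was scaled. Psmb8/Psmb5 was 0.187 (0.178 to 0.196) in the irradiated cKO library and 0.169 (0.161 to 0.177) in the irradiated WT library, against 0.702 (0.669 to 0.737) in the steady-state cKO library and 0.723 (0.693 to 0.755) in the steady-state WT library. After irradiation it was therefore 3.75-fold lower in Twist1 cKO and 4.28-fold lower in WT. Psmb9/Psmb6 was 0.0913 (0.0878 to 0.0948) and 0.0635 (0.0611 to 0.0659) in the irradiated cKO and WT libraries, against 0.276 (0.268 to 0.285) and 0.290 (0.282 to 0.298) in the steady-state cKO and WT libraries, which is 3.03-fold and 4.57-fold lower after irradiation in cKO and WT. Psmb10/Psmb7 was 7.25 (6.80 to 7.74) and 8.37 (7.92 to 8.85) in the irradiated cKO and WT libraries, against 12.99 (12.1 to 13.96) and 13.2 (12.4 to 14.1) in the steady-state cKO and WT libraries, 1.79-fold and 1.58-fold lower. All 3 ratios were lower in both irradiated libraries than in both steady-state libraries. The counting intervals of the genotypes overlapped for all 3 ratios at steady state and for none of the 3 after irradiation. These intervals leave out the spread between animals, and the directions after irradiation differed. The cKO ratio was 1.11 times the WT ratio for Psmb8/Psmb5, 1.44 times for Psmb9/Psmb6 and 0.866 times for Psmb10/Psmb7. The size of Psmb10/Psmb7 itself, unlike its difference between libraries, rests on implied gene lengths of 635 and 3421 bases.

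**Figure D3:**
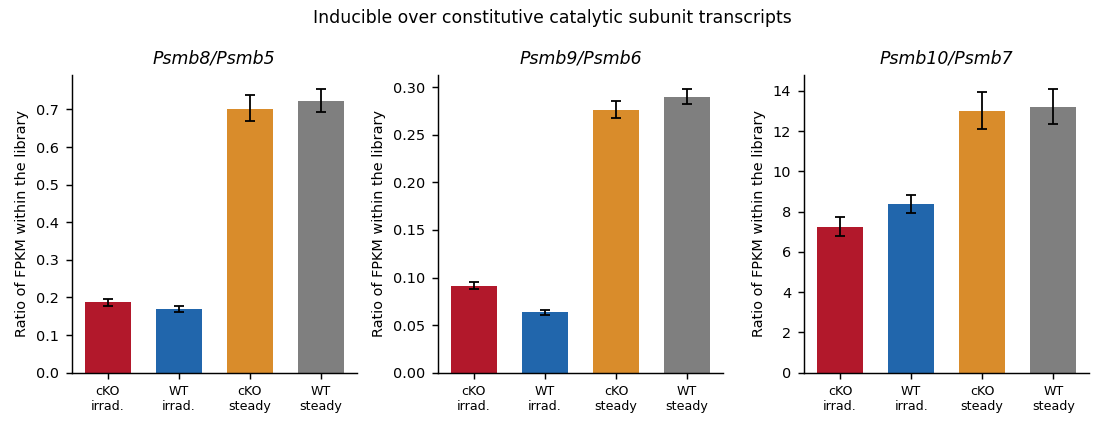
Ratio of the FPKM of each inducible proteolytic subunit to that of its constitutive counterpart in the 4 libraries (1 library per bar); error bars are exact 95% counting intervals. Each ratio is lower in both irradiated libraries than in both steady-state libraries.

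The promoters of Psmb8 and Psmb9 and of their constitutive counterparts are shown because these pairs moved apart, and that of Psmb3 because it had the highest difference. Each sequence holds the 250 bases before the start used in the RefSeq promoter table of GRCm38.p6, read 5′ to 3′ on the strand of the gene. For Psmb6 the RefSeq gene listing begins farther upstream, so the last 33 bases of its window, the marked match included, lie inside the gene by that listing. Capitals mark matches, on either strand, to the interferon-gamma-activated site TTCNNNGAA in Psmb8, to the CCAAT box in Psmb9 and Psmb3, to the antioxidant response core TGACNNNGC in Psmb5 and Psmb6, and to the interferon response core (GAAA, 2 bases of any kind, GAAA) in Psmb3, where it is the match farthest from the start.
Psmb8 (chr17:34197945-34198194, plus strand): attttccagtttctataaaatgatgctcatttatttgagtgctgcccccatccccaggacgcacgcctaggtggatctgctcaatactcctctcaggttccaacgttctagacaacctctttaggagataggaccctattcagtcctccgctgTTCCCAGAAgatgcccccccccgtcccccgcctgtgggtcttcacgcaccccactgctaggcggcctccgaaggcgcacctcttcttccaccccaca
Psmb9 (chr17:34187331-34187580, minus strand): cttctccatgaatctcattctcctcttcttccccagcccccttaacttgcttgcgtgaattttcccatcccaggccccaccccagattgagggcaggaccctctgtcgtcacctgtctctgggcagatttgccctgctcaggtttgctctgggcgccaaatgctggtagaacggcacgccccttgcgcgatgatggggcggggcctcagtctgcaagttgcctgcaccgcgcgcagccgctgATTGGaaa
Psmb5 (chr14:54617996-54618245, minus strand): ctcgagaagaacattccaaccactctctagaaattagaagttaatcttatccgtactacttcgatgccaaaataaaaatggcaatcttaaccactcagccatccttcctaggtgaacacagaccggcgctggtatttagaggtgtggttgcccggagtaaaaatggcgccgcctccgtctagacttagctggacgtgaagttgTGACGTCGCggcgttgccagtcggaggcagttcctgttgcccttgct
Psmb6 (chr11:70525107-70525356, plus strand): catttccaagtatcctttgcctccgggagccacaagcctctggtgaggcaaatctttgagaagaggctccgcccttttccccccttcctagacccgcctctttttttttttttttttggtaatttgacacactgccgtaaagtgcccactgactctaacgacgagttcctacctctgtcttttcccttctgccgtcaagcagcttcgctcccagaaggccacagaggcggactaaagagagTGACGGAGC
Psmb3 (chr11:97703184-97703433, plus strand): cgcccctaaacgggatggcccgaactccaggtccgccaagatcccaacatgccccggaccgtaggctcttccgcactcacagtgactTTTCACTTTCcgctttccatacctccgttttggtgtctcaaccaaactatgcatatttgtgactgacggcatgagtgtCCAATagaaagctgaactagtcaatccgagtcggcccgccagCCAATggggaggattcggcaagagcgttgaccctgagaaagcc

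Of the 48 members 40 had a window in the table. TTCNNNGAA was in 2 of the 40 windows (Psmb8, its first base 97 bases before the start, and Psmg1), against 7.01% of 32817 windows of the same length. The interferon response core was in 3 of 40 (Psmb3, Psmd4 and Psmd9), against 2.97% of all windows, and in none of the 3 immunoproteasome genes. TGACNNNGC was in 5 of 40 (Psmb5, Psmb6, Psmc6, Psmd12 and Psmd9), against 10.2%, and CCAAT was in 14 of 40, against 33.8%. Both strands were searched for each motif, and matches to different motifs could overlap. The shares among the members were close to those of all windows for CCAAT and TGACNNNGC. A match describes these letters and shows no binding. The start of Psmb9 lies 225 bases from that of Tap1, which is transcribed in the opposite direction and encodes a subunit of the peptide transporter for MHC class I. Tap1 had 8.03 and 9.35 FPKM in the irradiated cKO and WT libraries, against 19.5 and 19.7 FPKM in the steady-state cKO and WT libraries.

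Activators of the core differed from one another. Psme1 and Psme2 encode the subunits of the interferon-inducible activator, and Psme3 encodes a nuclear activator of the same family. Psme1 had 127 FPKM in the irradiated and 182 in the steady-state cKO library (−0.52), and 190.4 in the irradiated and 191 in the steady-state WT library (−0.01), and both signs turned with the scaling. Psme2 had 245 and 174 FPKM in the irradiated and steady-state cKO libraries (0.50) and 343 and 207 FPKM in the irradiated and steady-state WT libraries (0.72). The partner subunits thus did not move together: Psme1/Psme2 was 0.518 (0.502 to 0.534) and 0.555 (0.540 to 0.570) in the irradiated cKO and WT libraries, against 1.05 (1.02 to 1.08) and 0.923 (0.898 to 0.949) in the steady-state cKO and WT libraries. Psme2 has a close copy, Psme2b, listed at 27.0, 40.5, 21.1 and 24.8 FPKM in the irradiated cKO, irradiated WT, steady-state cKO and steady-state WT libraries, and how the authors shared reads between such copies is not stated, so the level of Psme2 is uncertain to that extent. Psme3 had 106 and 62.9 FPKM in the irradiated and steady-state cKO libraries (0.74) and 145 and 53.6 FPKM in the irradiated and steady-state WT libraries (1.42), and Psme1/Psme3 was 2.41-fold lower after irradiation in Twist1 cKO and 2.72-fold lower in WT. Psmf1, an inhibitor of the core, had 17.1 and 13.99 FPKM in the irradiated and steady-state cKO libraries (0.27) and 23.7 and 13.5 FPKM in the irradiated and steady-state WT libraries (0.77). Psma8, the testis form, had 6.60 and 10.8 FPKM in the irradiated and steady-state cKO libraries (−0.63), and 11.1 and 11.3 FPKM in the irradiated and steady-state WT libraries, where the difference of −0.02 turned with the scaling.

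Genes that work with the proteasome were followed in lists set beside the members. In the list of other components and assembly factors 6 of 7 genes were in the tables, and of the 5 kept, 1 was at least 1.5-fold higher after irradiation (Adrm1) and 2 lower (Zfand5 and Akirin2) in Twist1 cKO, and 2 were higher (Adrm1 and Pomp) and 1 lower (Zfand5) in WT. Adrm1, the ubiquitin receptor of the cap, had 68.6 and 38.6 FPKM in the irradiated and steady-state cKO libraries (0.81) and 104 and 39.0 FPKM in the irradiated and steady-state WT libraries (1.40). Pomp, the maturation factor of the core, differed by 0.51 in Twist1 cKO and 0.82 in WT. Zfand5, a ubiquitin-binding activator of the proteasome, went the other way, with 13.1 and 46.4 FPKM in the irradiated and steady-state cKO libraries (−1.75) and 15.2 and 41.4 FPKM in the irradiated and steady-state WT libraries (−1.39). Of 3 ubiquitin-activating or proteasome-bound enzymes kept of 7, 1 was at least 1.5-fold higher in Twist1 cKO (Usp14, 0.61) and 3 in WT (Usp14, 1.20; Uchl5, 1.11; Uba1, 0.66), and none was lower. Of the ubiquitin genes, Rps27a was higher by 0.71 in Twist1 cKO and 1.13 in WT, and the most abundant one, Ubb, had 1698 and 1809 FPKM in the irradiated and steady-state cKO libraries (−0.09) and 2428 and 1889 FPKM in the irradiated and steady-state WT libraries (0.36). The 10 housekeeping genes had medians of 0.08 and 0.61. Over all genes kept, 20.8% were at least 1.5-fold higher and 34.6% lower in Twist1 cKO, and 34.9% and 26.9% in WT.

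Genes of MHC class I presentation, which use the peptides the proteasome makes, went with Psmb8 and Psmb9. Of the 11 genes, 8 were at least 1.5-fold lower and 1 (Canx, a chaperone) higher after irradiation in each genotype, with medians of −1.07 in Twist1 cKO and −0.86 in WT. B2m, the light chain of class I molecules, had 2940.4 and 6171 FPKM in the irradiated and steady-state cKO libraries (−1.07) and 2967 and 8269.8 FPKM in the irradiated and steady-state WT libraries (−1.48). H2-K1, a class I heavy chain, differed by −1.49 in Twist1 cKO and −1.41 in WT. Among 8 regulators of proteasome genes, Irf1, an interferon-induced activator of Psmb9 and of class I genes, had 6.08 and 41.4 FPKM in the irradiated and steady-state cKO libraries (−2.58) and 7.05 and 40.2 FPKM in the irradiated and steady-state WT libraries (−2.35). Nfe2l1, the activator of constitutive proteasome genes when degradation is impaired, was also lower, with differences of −0.71 in Twist1 cKO and −0.50 in WT. Of the 5 regulators kept, 2 were at least 1.5-fold lower in Twist1 cKO and 1 in WT, and none was higher. Beside the counts of these lists, 34.6% of all genes kept were lower by that size in Twist1 cKO and 26.9% in WT. Higher by that size were 20.8% and 34.9% of all genes. The interferon response list was mixed: 5 of 14 genes kept were higher and 6 lower in Twist1 cKO, and 2 of 12 were higher and 4 lower in WT. Gbp2, an interferon-induced GTPase, differed by −1.95 in Twist1 cKO and −2.37 in WT, while Ifit3, an interferon-induced RNA sensor partner, differed by 1.66 and 0.81.

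Proteasome genes were set beside other large complexes measured in the same libraries. Set against the median gene, the members stood 0.88 higher after irradiation in Twist1 cKO and 0.99 in WT. The mitochondrial ribosomal protein genes (76 and 77 of 77 kept) stood 0.91 and 0.98 higher, and the cytosolic ribosomal protein genes (82 of 87 kept) 0.75 and 0.70. The distance of the proteasome genes from the median gene was thus close to that of the mitochondrial ribosomal protein genes in both genotypes.

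The differences of single members between irradiated and steady-state libraries were similar in both genotypes, which share no library here. Spearman's rho between the Twist1 cKO and the WT differences was 0.90 over 46 members and 0.84 over the 31 core and cap genes, beside 0.87 over 7039 genes kept in both. The sign was the same for 97.8% of the 46 members and for 79.8% of all genes. These are descriptions across genes, which share libraries within a genotype.

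Twist1 cKO against WT cells was compared within each condition. After irradiation all 46 members kept were lower in the cKO library, but the signs of Psmd2, Psmb5, Psmb8 and Psmb9 turned with the scaling. Most genes were lower too: the upper quartile over all genes kept was −0.28. The median over the members was −0.59, against −0.45 over 6348 genes kept, a distance of −0.14. At least 1.5-fold lower were 24 of 46 members, where 24.6% of all genes were, and none was 1.5-fold higher (7.42% of all genes). With differences centred on the median gene, no member was 1.5-fold apart in either direction, where 10.7% of all genes were higher and 0.977% lower. The count of 24 rests on the scale of the libraries: it was 3 with scaling by the median of ratios (Psmg1, Psmg2 and Psmg4), 16 with upper-quartile scaling, and 0 with the 50 most abundant genes left out or with recovered read totals.

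**Figure D4:**
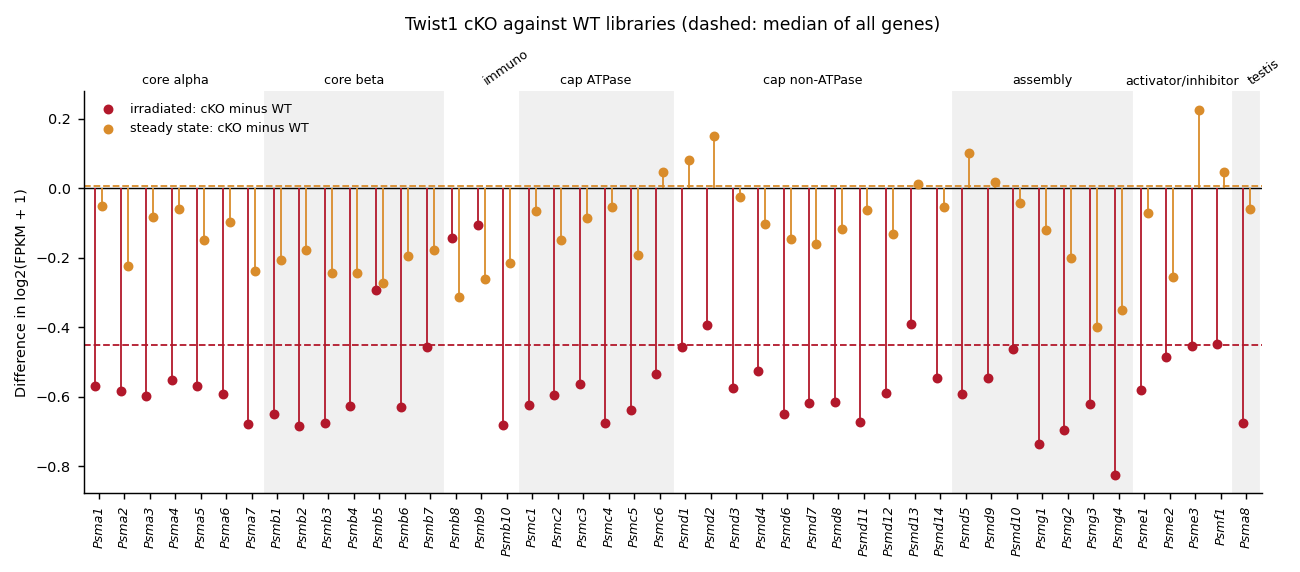
Difference in log2(FPKM + 1), Twist1 cKO minus WT, for the 46 proteasome genes kept (5 FPKM or more in either library), after irradiation (red, left) and at steady state (orange, right); dashed lines mark the median of all genes, −0.45 after irradiation and 0.01 at steady state. After irradiation 40 of 46 genes lie below the dashed line, with Psmb5, Psmb8 and Psmb9 the farthest above it, and at steady state 38 of 46 lie below 0, a sign that turned with the scaling for 26 of the 46.

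Within the classes, the medians after irradiation were −0.58 for the alpha subunits, −0.63 for the constitutive beta subunits, −0.61 for the cap ATPases, −0.58 for the further cap subunits, −0.62 for the assembly factors and −0.47 for the activators and the inhibitor. The lowest member was Psmg4, an assembly chaperone, with 99.2 FPKM in the irradiated cKO library against 176 in the irradiated WT library, 1.78-fold (1.66 to 1.91) lower. Psmb2 (669 against 1077 FPKM, −0.68) and Psma7 (279 against 446 FPKM, −0.68) were the lowest beta and alpha subunits in the irradiated cKO library relative to the irradiated WT library, Psmc4 the lowest ATPase (−0.67) and Psmd11 the lowest of the further cap subunits (−0.67). The smallest differences in these classes were those of Psma4 (−0.55), Psmb5 (−0.29), Psmc6 (−0.53), Psmd13 (−0.39) and Psmd10 (−0.46). Psmb5 had 212 FPKM in the irradiated cKO library against 260.0 in the irradiated WT library, Psmb6 had 395 against 612 FPKM (−0.63), and Psmb7 had 19.9 against 27.6 FPKM (−0.46). Without centring, Psmb5 was thus the proteolytic subunit of the constitutive core nearest to equal in both genotypes. Of the inducible subunits, Psmb8 had 39.7 against 43.9 FPKM in the irradiated cKO and WT libraries (−0.14) and Psmb9 had 36.1 against 38.8 FPKM (−0.10). Both stood above 83.8% and 85.1% of all genes in this comparison, and their sign turned with the scaling, as did that of Psmb5. Psmb10 had 144 against 231 FPKM (−0.68) and lay with the constitutive genes. Psme1 (−0.58), Psme2 (−0.48), Psme3 (−0.45), Psmf1 (−0.45) and Psma8 (−0.67) were also lower in the irradiated cKO library. Of the other lists, the class I presentation genes had a median of −0.09 with 0 of 11 at least 1.5-fold apart. The interferon response genes had a median of 0.18 with 3 of 9 at least 1.5-fold higher, among them Rsad2 (1.10), an interferon-induced antiviral enzyme. Over all genes kept, 7.42% were higher by that size and 24.6% lower.

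At steady state the uncentred differences between the genotypes were smaller. The distance of the members from the median gene was similar, −0.13 at steady state and −0.14 after irradiation. The median over 46 members was −0.12, against 0.01 over 7157 genes kept, and no member was at least 1.5-fold apart, where 1.77% of all genes were higher and 5.51% lower (1.72% and 5.63% when centred on the median gene, again with no member). Below 0 lay 38 members and above 0 lay 8, but 26 of the 46 signs turned with the scaling. The quartiles over all genes kept were −0.16 and 0.14. The constitutive beta subunits had a median of −0.21, the alpha subunits −0.10, the cap ATPases −0.07 and the further cap subunits −0.06. Psmb5 had 109 FPKM in the steady-state cKO library against 132 in the steady-state WT library (−0.27), Psmb6 had 235 against 269 FPKM (−0.19), and Psmb7 had 12.3 against 14.1 FPKM (−0.18). Psmb8 had 76.7 against 95.5 FPKM (−0.31), 1.24-fold (1.20 to 1.29) lower, Psmb9 had 65.001 against 78.1 FPKM (−0.26), and Psmb10 had 160.2 against 186 FPKM (−0.21). All 6 proteolytic subunits were thus slightly lower in the cKO library, and of these Psmb6 and Psmb7 turned sign with the scaling. The extremes of the members were Psmg3, with 6.08 against 8.33 FPKM (−0.40), and Psme3, with 62.9 against 53.6 FPKM (0.23). Psme1 (−0.07), Psme2 (−0.26) and Psmf1 (0.05) lay between them, with Psma1 (−0.05) and Psma7 (−0.24) as the highest and lowest alpha subunits, Psmc6 (0.05) and Psmc5 (−0.19) for the ATPases, and Psmd2 (0.15) and Psmd7 (−0.16) for the further cap subunits.

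At steady state the cKO minus WT difference was higher for genes with a greater length implied by the authors' values. Spearman's rho was 0.51 over the 46 members and 0.36 over 7157 genes. The same difference was lower for genes of higher mean level, with rho of −0.40 over the members and −0.31 over all genes kept. After irradiation rho with length was 0.47 over the 46 members and 0.07 over 6348 genes. With mean level it was −0.38 over the members and −0.29 over all genes kept. The part of length and of level in either comparison was not tested. The steady-state cKO library also had lower macrophage and higher neutrophil transcripts, with 11 of 12 macrophage genes kept at least 1.5-fold lower and 7 of 8 neutrophil genes higher than in the steady-state WT library. Lower by the same measure were 4 of 6 B and plasma cell genes and 5 of 11 erythroid genes, with immunoglobulin at 9.87% of reads in the steady-state cKO library against 14.7% in the steady-state WT library. Of all genes kept at steady state, 1.77% were higher and 5.51% lower by that size. The part of these cell types was not tested either. After irradiation 9 of 11 macrophage, 8 of 8 neutrophil and 7 of 13 erythroid genes were higher in the cKO library by 1.5-fold or more, beside 3 erythroid genes that were lower. Higher by that size were also 5 of 6 B and plasma cell genes and 4 of 5 T and NK cell genes, and immunoglobulin transcripts took 8.87% of the recovered reads in the irradiated cKO library against 2.71% in the irradiated WT library. Of all genes kept after irradiation, 7.42% were higher and 24.6% lower by that size. The part of these cell types was not tested. Over the 46 members, rho between the genotype differences after irradiation and at steady state was 0.33, beside 0.16 over 5733 genes.

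The genotype difference after irradiation minus that at steady state had a median of −0.48 over the 46 members, against −0.40 over 7772 genes kept. At least 1.5-fold lower by this measure were 6 members, where 21.9% of all genes were, and none was higher (9.25% of all genes). Psmd5, an assembly chaperone of the cap base, had the lowest value (−0.69), and Psmb8 the highest (0.17). Psmb5 was the constitutive gene nearest to 0 (−0.02), with uncentred genotype differences of −0.29 after irradiation and −0.27 at steady state. Relative to the median gene these were 0.16 and −0.28, and the sign after irradiation turned with the scaling. Centred on the median gene, no member was 1.5-fold apart, where 14.7% of all genes were higher and 1.84% lower.

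**Figure D5:**
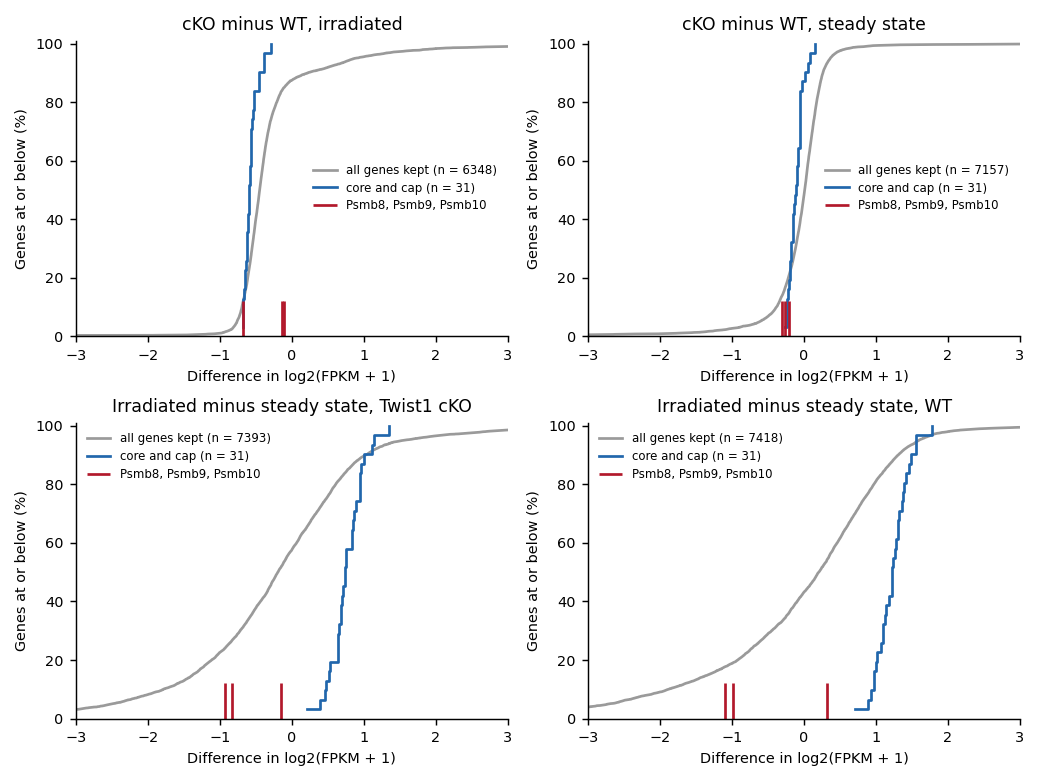
Share of genes (%) at or below each difference in log2(FPKM + 1) for all genes kept (grey), the 31 constitutive core and cap genes (blue) and Psmb8, Psmb9 and Psmb10 (red ticks), in the 4 comparisons. In both genotypes the core and cap curve lies to the right of the grey curve for irradiated minus steady state over most of its course and 2 of the 3 ticks lie at −0.83 or below; for cKO minus WT most of the blue curve lies slightly to the left of the grey curve.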

How the data were processed

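RNA was sequenced from 1 library per group, and the authors deposited 1 FPKM value per gene and library for 30409 genes. Per the submitters' processing notes the build was mm10 and the tools, for both assays together, were HOMER, MACS2 2.1.0, BWA 0.7.12-r1039 and Bowtie. The counting program, annotation, strand setting and treatment of gene copies are not stated. Every FPKM value was a whole number of reads times a constant of the gene and of the library, for 30409 of 30409 genes (100%). The tolerance was 2e-05 reads plus a small allowance that grew with the count. Where all 4 counts of a gene share a divisor the recovered number is too low by it. In the irradiated WT library the recovered reads exceeded the library size implied by the values (24743744 against 22146433). The recovery was tested on simulated data. Differences were computed as log2(FPKM + 1) from the deposited values, for genes that reached 5 FPKM in either library compared. A gene was counted as higher or lower at 1.5-fold, also with differences centred on the median gene. The pseudocount understates the change of low genes. Folds and ratios between libraries are plain FPKM ratios, with exact 95% Clopper-Pearson (levels) or conditional binomial intervals (ratios) on the recovered reads, which cover counting error only. With 1 library per group no count model was fitted. The genes named in each comparison are the 6 proteolytic subunits, the activators and the inhibitor, the highest and lowest gene of each class, members under 1 FPKM in all libraries, and up to 3 genes of each accompanying list. Other genes named, such as those behind a count of 5 or fewer members, were chosen after their values were seen. Members and lists were chosen with earlier results of these data known. Gene positions and promoter sequences come from RefSeq (GRCm38.p6), where all 48 members had a position. Alternatives tried were other pseudocounts, another, a mean or no minimum level, the sum over the identifiers of a symbol, members whose symbol has a letter after the number, and 4 other scalings of the libraries. Software was Python 3.11.15 with numpy 2.4.6, pandas 2.3.3, scipy 1.17.1 and matplotlib 3.10.9. The 2 ATAC-seq samples were not analysed here.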

Additional observations from a re-analysis of the deposited data

Results flagged for a closer look

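For 8 members the cKO library lay above the WT library at steady state and below it after irradiation. None of these differences was tested, since each rests on 4 single libraries. The sign was the same in both conditions for 82.6% of the 46 members kept, but for only 48.2% of 5733 genes. A change of sign was thus less common among the members than among all genes. The genotype difference after irradiation minus that at steady state was −0.58 for Psmc6 (−0.53 after irradiation and 0.05 at steady state), −0.54 for Psmd1 (−0.46 and 0.08), −0.54 for Psmd2 (−0.39 and 0.15), and −0.40 for Psmd13 (−0.39 and 0.01). It was −0.69 for Psmd5 (−0.59 and 0.10), −0.56 for Psmd9 (−0.55 and 0.02), −0.68 for Psme3 (−0.45 and 0.23) and −0.50 for Psmf1 (−0.45 and 0.05). The median over all genes kept was −0.40 by the same measure and the lower quartile −0.56, and Psmd5 and Psme3 lay the farthest below that quartile of these genes, at percentiles 10.5 and 11.8. The sign of Psmd13 at steady state and that of Psmd2 after irradiation turned with the scaling. For Psmb10 the difference between the irradiated and the steady-state library was −0.15 in Twist1 cKO and 0.31 in WT, apart by −0.47, which was not tested, and both signs turned with the scaling.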

How the results depend on the processing

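The median over the members at steady state, cKO minus WT (−0.12), reversed to 0.080 without the 50 most abundant genes and to 0.017 with recovered read totals. After irradiation the same median (−0.59) became −0.48 with scaling by the median of ratios, −0.55 with upper-quartile scaling, −0.20 without the 50 most abundant genes and −0.23 with recovered totals, and the 24 members at least 1.5-fold apart became 3 with the median of ratios and 0 with each of the last 2 scalings. Its distance from the median gene (−0.14) became −0.21 with a pseudocount of 5, −0.28 with a minimum of 1 FPKM and −0.61 with no minimum. Irradiated minus steady state, the median in Twist1 cKO (0.69) became 0.94 with the median of ratios and 1.28 with the upper quartile, and its distance from the median gene (0.88) became 0.65 with no minimum. In WT the median (1.20) became 1.35 with the median of ratios, 1.74 with the upper quartile, 0.86 without the 50 most abundant genes and 0.99 with recovered totals, and the distance (0.99) became 1.25 with a minimum of 1 FPKM, 1.17 with no minimum and 1.10 without the 50 most abundant genes. The genotype difference after irradiation minus that at steady state (−0.48) became −0.38, −0.43, −0.29 and −0.26 with these 4 scalings in the order above, and its distance (−0.08) became −0.15 with a pseudocount of 5, −0.21 with a minimum of 1 FPKM and −0.48 with no minimum. The cause of these shifts was not tested. Of 164 results under an alternative, 2 reversed, 27 moved and 135 stayed the same. A median stayed the same if it lay within an interval taken from the ranked member differences. A ratio did so within its counting interval, and a count within 1.5 times. The 24 members became 19 with a pseudocount of 5 and 16 with the upper quartile. The members at least 1.5-fold apart, irradiated against steady state, numbered between 24 and 41 in Twist1 cKO and between 37 and 44 in WT. Ratios within a library cannot change with its scaling. No replicate could be left out. No paired analysis was possible because each group held 1 library. Intervals are narrow at this depth, but they leave out the spread between animals, which 1 library per group cannot show, and Twist1 (0 to 6 reads) is below what this depth can compare.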
